A study of Mus musculus with 6 samples.

Results

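Pax1, Pax9, Meox1, Meox2, Uncx, Tbx18, Foxc2, Foxc1, Twist1 and Scx were examined as 10 sclerotome and somite patterning factors, out of 22359 protein-coding genes of the annotation. They are a list of named genes, drawn up with earlier results of these data known. For each, the mm9 gene body with 100 kb on either side (median window 219 kb, against 215 kb over all genes) was searched for peaks, and tags were counted at the summits and at transcript starts. Chromatin immunoprecipitation with sequencing (ChIP-seq) had been done on 6 libraries, 1 per condition. In E12.5 vertebral column (VC) of CD1 mice, Bapx1 carrying an S-peptide and calmodulin binding peptide tag, placed at its own locus by homologous recombination, was pulled down with anti-S-peptide from columns pooled over many embryos. The same antibody on wildtype embryos was its control. Endogenous Sox9 was pulled down from wildtype embryos with an anti-Sox9 antibody and compared with IgG, and the labels of these 2 libraries name limb beside vertebral column. In NIH3T3, a mouse fibroblast line, V5-tagged Bapx1 was overexpressed from a plasmid. For its V5 control the labels give empty vector in 1 place and wild type cells in another. The control titles read input, whereas their descriptions name antibodies.

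The sclerotome is the ventral part of each somite, and its cells form the vertebrae, the ribs and, at its edge, tendon progenitors. Pax1 and Pax9 act in ventral sclerotome and upstream of Bapx1 (Nkx3-2), a homeodomain protein that serves mainly as a repressor in the cartilage lineage. Sox9, an HMG-box protein, is required for cartilage condensation and switches on cartilage matrix genes. Uncx marks the posterior and Tbx18 the anterior part of each sclerotome, and the others act in paraxial mesoderm, mesenchyme or tendon.

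Within these windows the Bapx1 VC list had 5 peaks in 4 members (Pax9, Meox1, Uncx and Scx). The NIH3T3 list had 24 peaks in 10 members, and the Sox9 list 13 peaks in 6 members (Pax9, Meox1, Uncx, Foxc2, Foxc1 and Scx). By the same rule, 25.1% of all genes had a Bapx1 VC peak, 81.0% a NIH3T3 peak and, among the 20417 genes whose start could be placed on the Sox9 coordinates, 29.4% a Sox9 peak. With 10 genes, each gene weighs 10 percentage points in such a share. The 22 other genes of segmentation, dermomyotome, muscle, sclerotome and tendon that were counted alongside gave 7 of 22 with a Bapx1 VC peak, 19 of 22 with a NIH3T3 peak and 5 of 19 placed genes with a Sox9 peak. No member was without any peak. Pax1, Meox2, Tbx18 and Twist1 had peaks of the NIH3T3 list alone. The shares of all genes with any peak, or with NIH3T3 peaks alone, were not counted, so these counts are a description.

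Some facts of the libraries touch every value. The tags per library were 24853758 for Bapx1 VC, 20702403 for its control, 12784158 for Sox9, 13329191 for IgG, 8901095 for Bapx1 NIH3T3 and 12453788 for V5. Few tags lay under any single peak, so intervals were wide, and exact 95% binomial intervals of the ratios cover counting error only. No condition was replicated and no test between conditions was possible. The Sox9 and IgG tags lay on other coordinates than mm9. Of 5030 windows of 500 kb, 93.5% could be matched between the libraries, and 94.3% of these were displaced by over 1 kb, with a median of 93.5 kb. At the members the displacement ran from 3.15 kb at Scx to 362 kb at Foxc2. The Sox9 peaks were moved by it, and 3516 of 3722 could be. Over the moved peaks the share with a Sox9 motif within 50 bp of the summit was 32.5%, against 15.4% before they were moved and 13.6% in flanks. Because the moved positions are estimates, Sox9 peaks are given below by distance from a start.

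**Figure D1:**
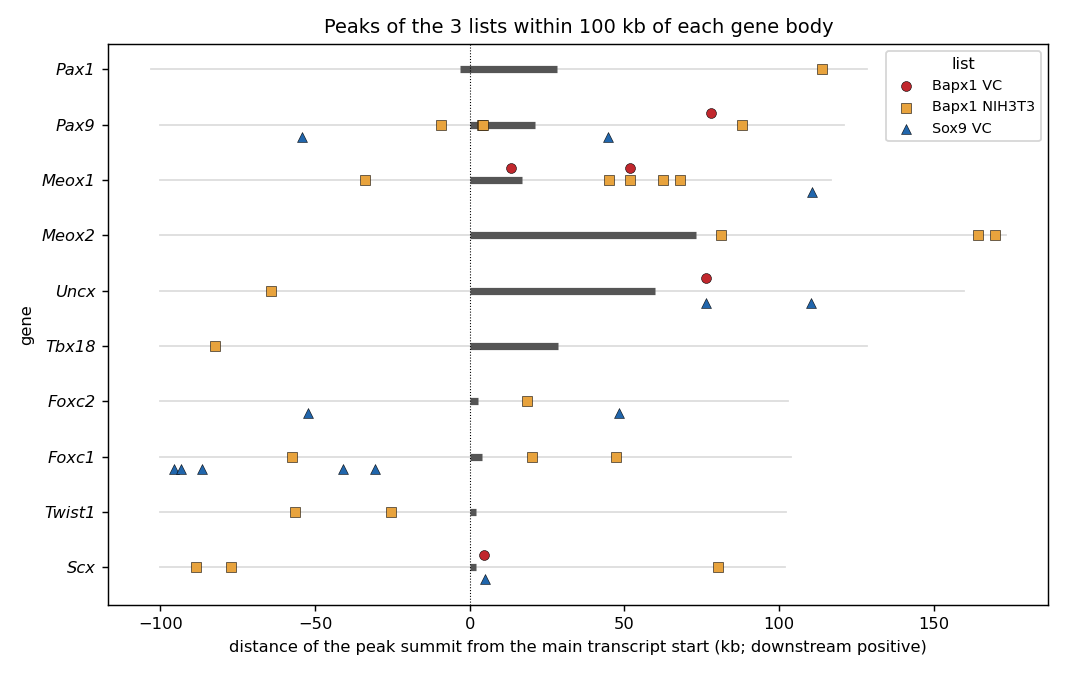
Summits of the Bapx1 VC (5), Bapx1 NIH3T3 (24) and Sox9 VC (13) peaks by distance in kb from the main transcript start of each gene, downstream positive. Dark bars are gene bodies and light lines the searched windows, and all 5 Bapx1 VC summits lay downstream of the start.

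The peaks were mostly far from the starts, in windows that reach 100 kb beyond each gene body. Places and distances were not counted over all peaks of the lists, so they are a description. The 5 Bapx1 VC summits lay 4.72 to 78.1 kb from the main start (that of the longest protein-coding transcript), all downstream, with 3 in introns and 2 between genes. The NIH3T3 summits lay 3.84 to 170 kb away (median 59.9 kb), with 4 in exons, 7 in introns and 13 between genes. The Sox9 summits lay 4.83 to 111 kb away (median 54.3 kb), with 5 in introns and 8 between genes. A summit within 5 kb of a member start was seen for 1 Bapx1 VC, 2 NIH3T3 and 1 Sox9 peak. The start nearest to the summit was that of the member for 5 of 5, 13 of 24 and 7 of 13 peaks of the lists. The false discovery rates in the peak lists were 60.83% to 69.8% for the 5 Bapx1 VC peaks, 0.09% to 4.75% for the NIH3T3 peaks and 0.98% to 100% for the Sox9 peaks.

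Uncx is a homeodomain factor of the posterior sclerotome, from which vertebral pedicles and proximal ribs form. Its window held a Bapx1 VC peak 76.3 kb downstream of the main start, at chr5:140095218-140095904 (mm9) between genes. Within 200 bp of this summit there were 25 Bapx1 VC tags and 3 control tags, a ratio of 6.94 (2.12 to 35.9). The Sox9 pair had 24 and 5 tags there, a ratio of 5.0 (1.87 to 16.8). The NIH3T3 pair had 0 and 3 tags, with an interval of 0 to 3.39 for the ratio. Both embryo ChIPs were above their own controls at this position. Peaks of both lists had been called there from the same libraries, so this is a description. The Sox9 list had its strongest Uncx peak at the same place, with the summits 90 bp apart, and at its own summit the counts were 25 and 4. It is shown, on the plus strand, as a site with overlapping peaks of both lists, with the TGAGTG that began 71 bases from the summit in capitals. That motif lay outside the 50 bp searched around summits, and the Sox9 motif was found 0 times in these 300 bases.
Uncx shared site, chr5:140095639-140095938: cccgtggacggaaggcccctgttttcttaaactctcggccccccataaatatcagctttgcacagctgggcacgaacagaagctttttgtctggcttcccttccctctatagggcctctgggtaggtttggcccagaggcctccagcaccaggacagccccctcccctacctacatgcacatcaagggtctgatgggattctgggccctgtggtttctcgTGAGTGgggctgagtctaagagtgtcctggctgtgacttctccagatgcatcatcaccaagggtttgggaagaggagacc

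The second Sox9 peak at Uncx lay about 110 kb downstream with 18 Sox9 and 4 IgG tags, a ratio of 4.69 (1.55 to 19.1). Its false discovery rate in the list was 51.29%, against 9.93% for the stronger Sox9 peak of Uncx. The displacement changed from 222.4 to 223.4 kb around that peak, and at it windows of 40 kb gave 227200 bp, 4800 bp from the value used, on a best match 1.03 times the next. The mm9 position of that peak is therefore uncertain by up to 4800 bp over the windows tried. At 76 kb the displacement was steady, with 222300 bp measured in windows of 40, 100 and 200 kb. In windows of 500 kb, before refinement, it was 223450 bp at Uncx. The single NIH3T3 peak of Uncx lay 64.1 kb upstream in an intron of Zfand2a, with 14 Bapx1 and 4 V5 tags. Embryo Bapx1 had 5 and 4 tags at it.

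Scx encodes scleraxis, a bHLH protein that marks tendon progenitors at the border of sclerotome and myotome. It lies inside an intron of Bop1 on the opposite strand. A Bapx1 VC peak 4.72 kb downstream of the Scx start and still within Bop1, had 24 Bapx1 and 9 control tags, a ratio of 2.22 (0.997 to 5.43). The Sox9 pair had 24 and 9 tags at this summit, a ratio of 2.78 (1.25 to 6.80). NIH3T3 Bapx1 had 3 tags and V5 1. The interval of the Bapx1 ratio reached below 1, the only such case among the 5 peaks. A Sox9 peak overlapped, with summits 109 bp apart and a false discovery rate of 66.42% in the Sox9 list. The position of this Sox9 peak was uncertain too. In windows of 100 kb its best match, at 3000 bp, was 1.32 times the next. With windows of 200 kb the displacement was 3200 bp, the summits were 309 bp apart, the peaks still overlapped, and the Sox9 pair had 12 and 6 tags at the Bapx1 summit, a ratio of 2.09 (0.724 to 6.77). With windows of 40 kb it was 8100 bp, on a best match 1.19 times the next, the peaks did not overlap, and the counts were 5 and 2, a ratio of 2.61 (0.427 to 27.4). It was the Bapx1 VC peak nearest to a member start.

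The 2 sites make 2 of 5 Bapx1 VC peaks in these windows that overlapped a Sox9 peak, against 8.42% of all Bapx1 VC peaks, and 2 of 13 Sox9 peaks that overlapped a Bapx1 VC peak, against 6.74% of all. With windows of 40 kb the Scx pair was lost and 1 of 5 remained, at Uncx. The displacement had been matched on the tags of both pairs, the Bapx1 tags among them. Measured again in windows of 100 kb from the 2 control libraries alone, or without the Bapx1 pair's tags within 2000 bp of each summit, it gave 2 of 5 both times, although the search still began from the match of both pairs in windows of 500 kb. Over the 5 Bapx1 VC summits the Sox9 pair had 71 and 24 tags, a ratio of 3.08 (1.92 to 5.12), where all 2645 Bapx1 VC summits that could be placed gave 1.64. The interval was above 1 at 3 of 5, against 11.8% of all. Besides Uncx and Scx this was the Pax9 site described below, and with windows of 40 or 200 kb the Scx interval held 1. Over the 13 Sox9 summits embryo Bapx1 had 147 and 69 tags, a ratio of 1.77 (1.32 to 2.40), and 1.59 over all Sox9 peaks. The interval was above 1 at 2 of 13, those of Uncx and Scx, against 13.2% of all. Without these 2 genes the ratio was 1.38 (0.975 to 1.96).

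**Figure D2:**
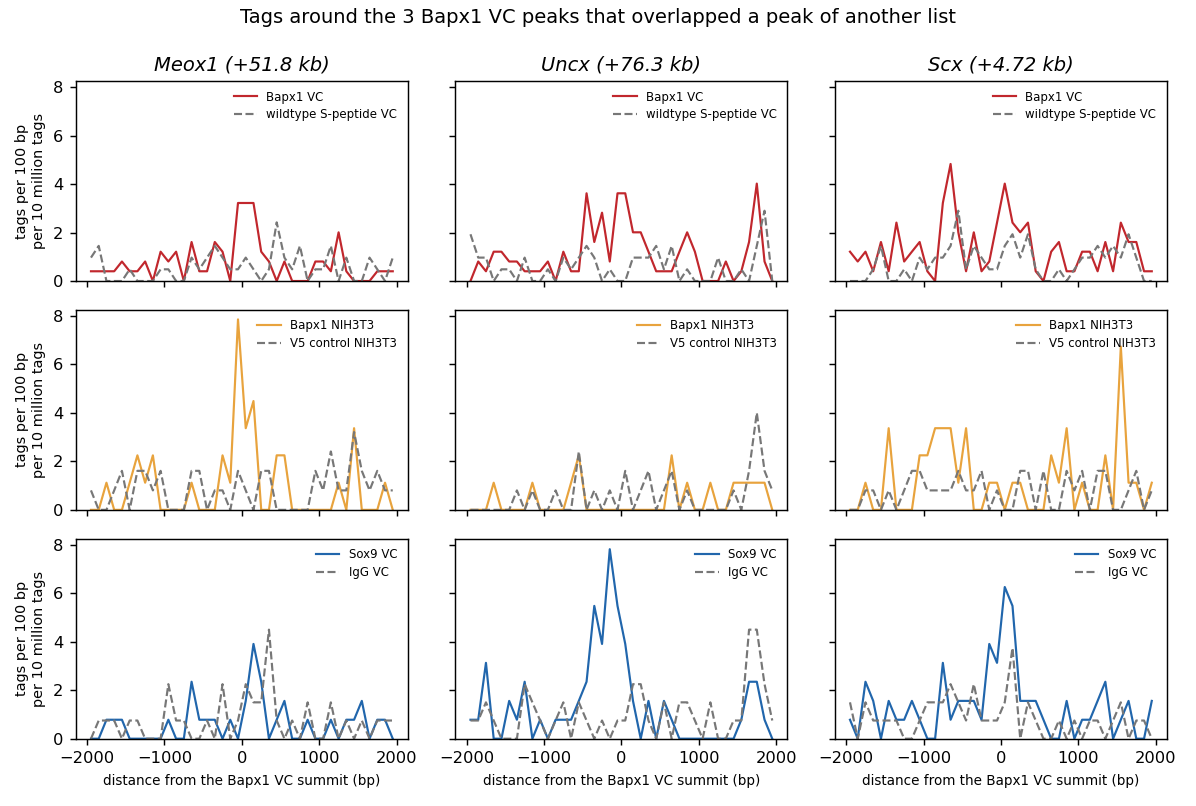
Tags per 100 bp, scaled to 10000000 tags per library, against the distance in bp from the Bapx1 VC summit, for the Meox1, Uncx and Scx sites that overlapped a peak of another list, with the Sox9 displacement from windows of 100 kb. Solid lines are ChIP and dashed lines control libraries, and at Uncx the embryo Bapx1 and Sox9 libraries rose above their controls while the NIH3T3 library did not.

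Meox1 and Meox2 are mesenchyme homeobox proteins that act together in somite patterning. Meox1 had 2 Bapx1 VC peaks, more than any other member. The stronger, at chr11:101742129-101742500, lay in a Meox1 intron 13.4 kb downstream of the start. It had 31 Bapx1 VC and 6 control tags, a ratio of 4.30 (1.77 to 12.6). At the same place the NIH3T3 pair had 1 and 7 tags, a ratio of 0.200 (0.00443 to 1.56), and the Sox9 pair 6 and 4. It was the only Bapx1 VC peak of the 5 with the Bapx1 motif, TGAGTG or TAAGTG on either strand, lying wholly within 50 bp of its summit.
The other lay at chr11:101703797-101704149, between genes, 51.8 kb downstream of the start. Embryo Bapx1 had 24 and 5 tags there, a ratio of 4.0 (1.5 to 13.4). NIH3T3 Bapx1 had 15 and V5 3 tags, a ratio of 7.0 (1.98 to 37.7), and a NIH3T3 peak had its summit 1 bp away. The Sox9 pair had 8 and 6 tags. It was the only position in the 10 windows at which a peak of the Bapx1 VC list overlapped a NIH3T3 peak, 1 of 5 peaks against 6.39% of all. It was likewise the only 1 of 5 Bapx1 VC summits with the NIH3T3 interval above 1, against 10.9% of all. The pair is shown to set a site listed in the embryo alone beside a site listed in both systems. TAAGTG is in capitals, beginning 36 and 47 bases from the summits. Embryo alone means that the NIH3T3 list had no peak there, not that Bapx1 was shown to be absent.
Meox1 intron, embryo alone, chr11:101742135-101742434: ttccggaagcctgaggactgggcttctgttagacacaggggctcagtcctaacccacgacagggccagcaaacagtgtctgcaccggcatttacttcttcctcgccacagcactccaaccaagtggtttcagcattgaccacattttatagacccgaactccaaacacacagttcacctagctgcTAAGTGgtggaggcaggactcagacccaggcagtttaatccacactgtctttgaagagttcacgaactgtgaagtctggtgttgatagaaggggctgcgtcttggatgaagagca
Meox1 downstream, embryo and NIH3T3, chr11:101703761-101704060: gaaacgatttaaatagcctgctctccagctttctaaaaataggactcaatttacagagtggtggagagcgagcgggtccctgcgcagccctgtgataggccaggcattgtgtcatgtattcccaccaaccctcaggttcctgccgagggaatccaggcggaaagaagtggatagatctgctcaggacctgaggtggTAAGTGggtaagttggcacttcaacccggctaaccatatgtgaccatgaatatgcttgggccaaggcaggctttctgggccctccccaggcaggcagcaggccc

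In a window of 300 bases around the summit, 3 of 5 Bapx1 VC peaks held a Bapx1 motif, where 51.2% of all Bapx1 VC peaks and 30.5% of windows centred 1000 bp away did. Meox1 had 4 more NIH3T3 peaks, of which the strongest lay between genes 62.4 kb downstream of the start, with 12 Bapx1 and 3 V5 tags. Its single Sox9 peak lay in an intron of Etv4, 111 kb downstream of the Meox1 start and 1522 bp from an Etv4 start, with 12 Sox9 and 2 IgG tags. Meox2 had 3 NIH3T3 peaks and none of the other lists. The strongest, 170 kb downstream in an intron of the next gene Agmo, had 18 Bapx1 and 5 V5 tags, a ratio of 5.04 (1.80 to 17.4), and held CACTTA, the reverse complement of TAAGTG, at 8 and 36 bases from the summit. Embryo Bapx1 had 7 and 5 tags at it.

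**Figure D3:**
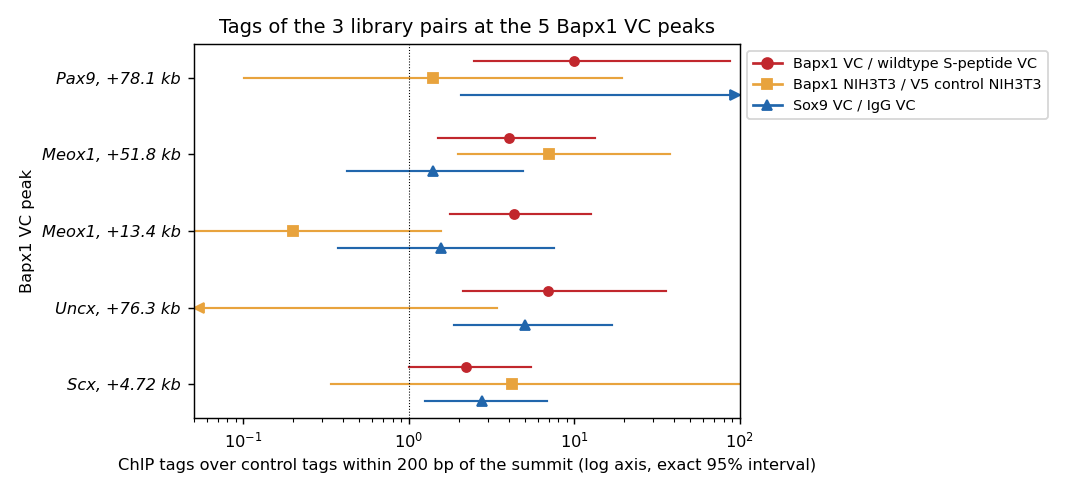
ChIP over control tags within 200 bp of the 5 Bapx1 VC summits on a log axis, for the Bapx1 VC, Bapx1 NIH3T3 and Sox9 VC pairs, with exact 95% intervals. Intervals are clipped at the axis limits and arrowheads mark ratios beyond them, and NIH3T3 Bapx1 lay clear of 1 only at the Meox1 site 51.8 kb downstream of the start.

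Pax9 and Pax1 are paired-box factors that together drive ventral sclerotome and Bapx1 expression in it. The Bapx1 VC peak of Pax9, at chr12:57870633-57870968, lay 78.1 kb downstream of the main start in an intron of Slc25a21, which is transcribed towards Pax9 from the other side. It had 24 Bapx1 and 2 control tags, a ratio of 10 (2.48 to 87.3). The Sox9 pair had 9 and 0 tags there, with an exact lower limit of 2.06 for the ratio (1.5 with the displacement from windows of 200 kb), although the Sox9 list had no peak at it. NIH3T3 Bapx1 and V5 had 2 tags each. The 2 Sox9 peaks of Pax9 lay elsewhere, 54.3 kb upstream with 12 and 0 tags and 44.5 kb downstream with 11 and 1 tags, and both had a false discovery rate of 100% in the list.

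Pax9 had 4 NIH3T3 peaks. One lay 9.32 kb upstream between genes with 10 Bapx1 and 4 V5 tags, and another 88.0 kb downstream in an intron of Slc25a21 with 13 and 3 tags, a ratio of 6.06 (1.67 to 33.2). The other two had summits 33 and 391 bp from a downstream start of Pax9, at 57796626 on chromosome 12, in Pax9 exons. The nearer had 10 Bapx1 and 2 V5 tags and the farther 16 and 2, a ratio of 11.2 (2.63 to 100). Within 500 bp of this start there were 29 and 7 tags, a ratio of 5.80 (2.48 to 15.7), while embryo Bapx1 had 25 and 19 (1.10, 0.580 to 2.11) and Sox9 14 and 10 (1.46, 0.603 to 3.67). At the main Pax9 start NIH3T3 Bapx1 had 1 tag against 12 of V5, a ratio of 0.117 (0.00273 to 0.788). The downstream start was picked out by the NIH3T3 peaks beside it, whose tags its count contains, so its NIH3T3 values are a description and not a comparison with the main start. The 2 Bapx1 motifs near the nearer summit, which lay in a Pax9 exon, are shown, each with the bases around it.
Pax9 downstream start, chr12:57796579-57796604: gtgtcacaagTGAGTGatagactgag
Pax9 downstream start, chr12:57796509-57796534: actgagctgtCACTCAccggcctgca

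Pax1 had 1 peak in all, of the NIH3T3 list, 114 kb downstream of its main start between genes at chr2:147304595-147304894. There NIH3T3 Bapx1 had 18 tags and V5 0, with an exact lower limit of 6.15 for the ratio. It had the highest significance of the 24 NIH3T3 peaks, with a score of 143.5 (10 times −log10 of p) in the list. Embryo Bapx1 had 3 tags and its control 5, and Sox9 3 and IgG 2. It is shown as the strongest NIH3T3 peak, with 3 Bapx1 motifs in capitals.
Pax1 downstream, NIH3T3, chr2:147304566-147304865: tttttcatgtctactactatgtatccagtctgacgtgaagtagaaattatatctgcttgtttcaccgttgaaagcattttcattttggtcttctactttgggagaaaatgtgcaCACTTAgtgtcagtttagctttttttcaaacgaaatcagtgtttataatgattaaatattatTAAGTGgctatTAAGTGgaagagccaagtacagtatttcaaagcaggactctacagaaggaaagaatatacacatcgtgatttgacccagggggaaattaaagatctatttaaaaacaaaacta

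Foxc1 and Foxc2 are forkhead factors with shared functions in paraxial mesoderm and in the vertebral arches. Foxc1 had the most Sox9 peaks of the members, 5 of 13, all upstream between 30.7 and 95.6 kb from its start and all between genes. The strongest, 41.1 kb upstream, had 63 Sox9 and 7 IgG tags, a ratio of 9.38 (4.30 to 24.3), and a score of 385.52 with a false discovery rate of 0.98%. Embryo Bapx1 had 11 and 9 tags and NIH3T3 Bapx1 1 and 3. A further peak, 30.7 kb upstream, was named after its values were seen, with 43 and 3 tags, a ratio of 14.9 (4.78 to 75.3). Embryo Bapx1 had 11 and 3 tags at that peak, a ratio of 3.05 (0.807 to 17.0).
The other Foxc1 Sox9 peaks had 29 and 3, 13 and 3, and 15 and 2 tags. Their false discovery rates in the list were, in this order, 5.94%, 100% and 29.9%. The Foxc1 locus had no Bapx1 VC peak. Its strongest NIH3T3 peak, in an intron of the neighbour Gmds 47.4 kb downstream, had 20 Bapx1 and 1 V5 tags, a ratio of 28.0 (4.48 to 1160). Of 3 NIH3T3 peaks at Foxc1, 2 lay downstream in Gmds, and the other lay 57.3 kb upstream, within the span of the Sox9 peaks. The Sox9 peaks 95.6 and 93.3 kb upstream were nearer to the start of Foxf2 than to that of Foxc1.

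Foxc2 had 2 Sox9 peaks, 52.4 kb upstream and 48.3 kb downstream of the start, and no Bapx1 VC peak. The upstream peak had 42 Sox9 and 9 IgG tags, a ratio of 4.87 (2.33 to 11.4), in an intron of Gm20388 and 1110050K14Rik, and the nearest start was that of Foxf1a at 20651 bp. Embryo Bapx1 had 23 and 15 tags at it, a ratio of 1.28 (0.638 to 2.63). The downstream peak had 15 and 5 tags, a ratio of 3.13 (1.08 to 11.0). Its false discovery rate in the list was 60.68%, against 9.91% for the upstream peak. The single NIH3T3 peak of Foxc2 lay 18.3 kb downstream with 16 and 3 tags, a ratio of 7.46 (2.14 to 40), while embryo Bapx1 had 5 and 4.

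Tbx18, the T-box factor of the anterior sclerotome, and Twist1, a bHLH factor of early mesenchyme, had peaks of the NIH3T3 list alone. The Tbx18 peak, 82.4 kb upstream and between genes, had 9 Bapx1 and 3 V5 tags, a ratio of 4.20 (1.05 to 24.1), and 5 and 3 tags in the embryo. The stronger of 2 Twist1 peaks lay 25.5 kb upstream, 3733 bp from the start of Ferd3l, with 13 and 4 tags, a ratio of 4.55 (1.4 to 19.1), and TAAGTG 7 bases from its summit. Embryo Bapx1 had 1 and 2 tags and the Sox9 pair 0 and 0 there. Scx had 3 NIH3T3 peaks, the strongest 80.3 kb downstream in an exon of Fbxl6 with 21 and 4 tags, and embryo Bapx1 had 11 and 6.

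In the windows of 6 members, 12 NIH3T3 peaks were neither the strongest there, nor within 5 kb of a member start, nor shared with another list. They include the distant pair at Pax9 given above. They had 9 to 18 Bapx1 and 1 to 8 V5 tags, with a median ratio of 6.53 (range 3.08 to 21.0). The Bapx1 motif was within 50 bp of the summit at 5 of these 12. Embryo Bapx1 had 2 to 11 tags at them and its control 1 to 12.

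Over all 24 NIH3T3 summits, which were chosen without the embryo libraries, embryo Bapx1 had 178 and 108 tags, a ratio of 1.37 (1.07 to 1.76), beside 1.12 over all 23205 NIH3T3 peaks. The interval was above 1 at 2 of 24, against 2.16% of all. These were the Meox1 site shared with the Bapx1 VC list, and a Foxc1 site in Gmds 20.2 kb downstream of the start (named after its values were seen), with 9 and 1 embryo tags and 2 CACTTA motifs. Without the shared Meox1 site the ratio was 1.25 (0.964 to 1.61). The Sox9 pair had 78 and 82 tags at the 24 summits, a ratio of 0.992 (0.718 to 1.37). In the other direction, over the 5 Bapx1 VC summits NIH3T3 Bapx1 had 21 and 16 tags, a ratio of 1.84 (0.913 to 3.76), beside 1.69 over all Bapx1 VC peaks, and 15 of the 21 tags were at the shared Meox1 site.

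At the peaks of each list, counted in the libraries that called them and so given as a description, the ratios were 4.26 for Bapx1 VC (3.98 over all peaks), 6.46 for NIH3T3 (7.32) and 6.52 for Sox9 (7.72). The Bapx1 motif was within 50 bp of the summit at 9 of 24 NIH3T3 peaks, 37.5% (18.8 to 59.4), below the 64.4% of all NIH3T3 peaks and above the 10.8% of their flanks at 500 bp. In windows of 300 bases it was at 15 of 24, against 76.3% of all. Of the Bapx1 VC peaks 1 of 5 had it within 50 bp, against 31.2% of all. The Sox9 motif, which reads A or T, A or T, C, A, A, A or T and G on either strand, was at 4 of 13 Sox9 peaks, against 32.5% of all. These were 3 Foxc1 peaks, among them both strong ones, and the upstream Pax9 peak. The motif letters describe these windows of mm9 and are no measure of binding.

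**Figure D4:**
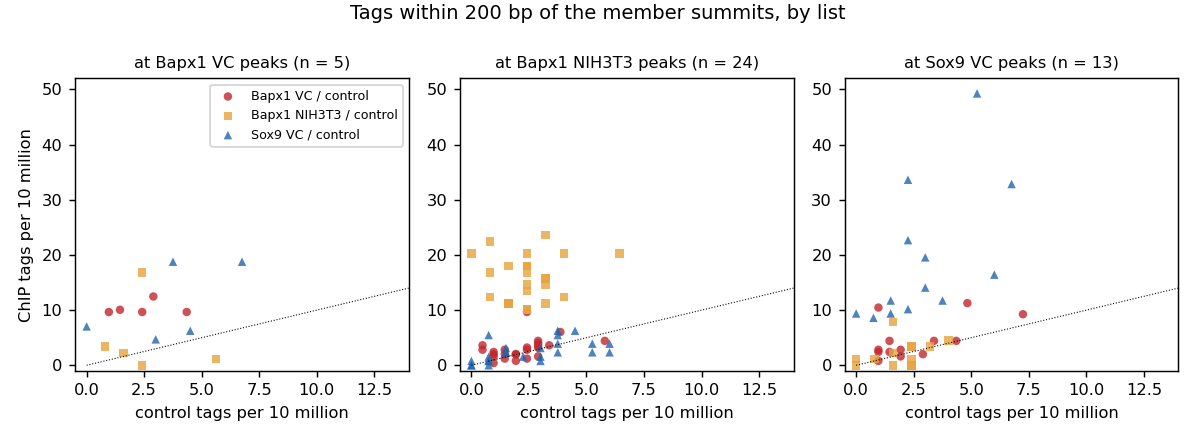
ChIP tags against control tags, both scaled to 10000000 tags per library, within 200 bp of the summits of each list, for the Bapx1 VC, Bapx1 NIH3T3 and Sox9 VC pairs, with the dotted line at equal levels. At the 24 NIH3T3 summits the embryo Bapx1 and Sox9 points scattered to both sides of the line, and the ratios of the summed tags were 1.37 and 0.992.

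Tags were also counted at the main transcript starts alone, where the downstream Pax9 start does not enter. Embryo Bapx1 was at least 2-fold over its control, with at least 10 tags within 500 bp, at 0 of 10 main starts, against 5.53% of all genes. The ratios ran from 0.444 at Foxc1 to 1.79 at Meox2, with a median of 0.958 beside 1.04 over all genes. Meox2 had 28 and 13 tags (0.899 to 3.77), Scx 31 and 18 tags, a ratio of 1.43 (0.778 to 2.72), and Foxc1 16 and 30 (0.226 to 0.841). Foxc1 was the only member start with the embryo Bapx1 interval below 1. The share of all genes with an interval below 1 was not counted for any pair. This and the NIH3T3 intervals below 1 at Pax9 and Uncx are therefore a description.
NIH3T3 Bapx1 passed the rule at 1 of 10, Tbx18 with 11 and 5 tags, a ratio of 3.08 (0.986 to 11.3), against 17.9% of all genes. Its member median was 0.789, beside 1.22 over all. Sox9 passed at 1 of 10, Meox1 with 12 and 6 tags, a ratio of 2.09 (0.724 to 6.77), against 4.02%. Both intervals held 1, and neither start passed when tags within 1000 bp were counted. The Sox9 median over the members was 0.695, beside 0.859 over all. Among the 22 other somite genes the rule was passed by En1 in the embryo (23 and 7 tags, 2.74), in NIH3T3 by the Sox9 gene (15 and 8 tags, 2.62) and Nkx3-2 (411 and 96 tags, 5.99), and for the Sox9 protein by 0 of 19. Nkx3-2 is the gene of Bapx1, which was overexpressed from a plasmid in the ChIP cells. Whether its 411 tags came from the locus or from the plasmid was not tested. The V5 control had 96 tags at Nkx3-2, against 2 to 11 at the other 21 genes, although neither of its labels names Bapx1. Where these 96 tags came from was not tested either.
At the main Pax1 start embryo Bapx1 had 14 and 12 tags, NIH3T3 Bapx1 2 and 3, and Sox9 8 and 12. A start of Pax1 upstream of it had 10 Sox9 and 5 IgG tags, a ratio of 2.09 (0.649 to 7.78). Twist1 had 23 and 18 tags in the embryo pair, 5 and 14 in NIH3T3 and 9 and 19 in the Sox9 pair. The 3 annotated Uncx starts lie close enough to share tags. NIH3T3 Bapx1 had 3 and 16 tags at the start farthest downstream, a ratio of 0.262 (0.0490 to 0.916), and 1 and 7 at the main start (0.00443 to 1.56).

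**Figure D5:**
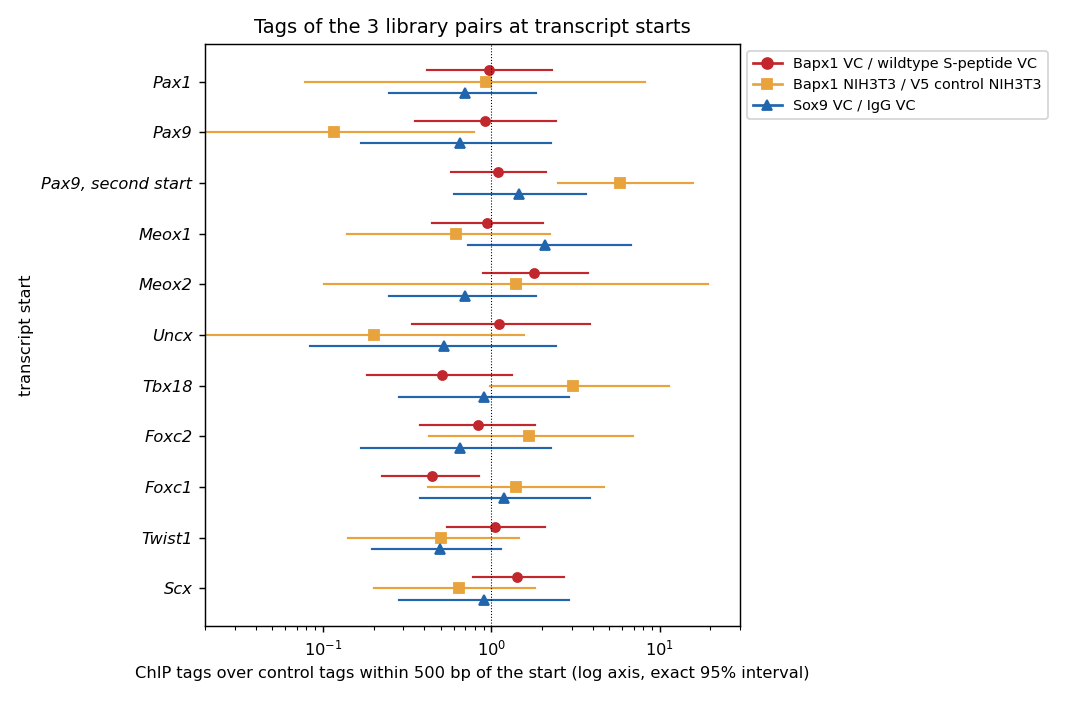
ChIP over control tags within 500 bp of the 10 main transcript starts and of the downstream start of Pax9 on a log axis, for the 3 library pairs, with exact 95% intervals clipped at the axis limits. NIH3T3 Bapx1 lay above 1 at the downstream Pax9 start (5.80), which was picked out by the NIH3T3 peaks called beside it. At the main Pax9 start it lay below 1 (0.117), and these values are no comparison. Further starts of Pax1 and Uncx are not drawn.

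Over the whole windows the Bapx1 VC ratios lay between 0.974 at Foxc2 and 1.11 at Pax9, and the NIH3T3 ratios between 0.842 at Pax1 and 1.13. The Sox9 ratios varied more, from 0.799 at Foxc2 to 1.23 at Meox2, and the part of this in the Sox9 ratios at single sites was not tested. Scaled to the tags within 50 kb of each summit instead of to the library, the Sox9 ratio over the 13 summits was 7.54 (5.59 to 10.3), within the interval of 6.52 (4.84 to 8.95) from library totals.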

How the data were processed

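The authors deposited, for each of 6 ChIP-seq libraries, the positions of uniquely mapped tags of 35 bp (unit: positions, with no normalization), and for each ChIP library a list of peaks called by MACS against its control at p of 1.00e-05, not pooled. In these lists the authors give the tag count of each peak, a score (10 times −log10 of p), the false discovery rate (percent) and the fold, a ratio of ChIP tags to local background. Reads were mapped with the Illumina Genome Analyzer Pipeline, with at most 2 mismatches. Per the labels the build is mm9, which the Bapx1 and NIH3T3 tags match (NCBIM37, GENCODE vM1) and the Sox9 and IgG tags do not.

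One tag per position and strand was kept, which removed 2.36% and 6.53% of the NIH3T3 and V5 tags and none of the embryo tags. Tags were counted by midpoint within 200 bp of summits and 500 bp of starts and divided by the library's total over the assembled chromosomes. Ratios and shares carry exact (Clopper-Pearson) 95% intervals, which cover counting error only, since tags are PCR reads without molecular identifiers. With 1 library per condition no test was run. The displacement of the Sox9 coordinates was measured by correlating tags of both embryo pairs in bins of 50 bp, in windows of 500 kb and then of 100 kb (best match at least 1.5 and 1.2 times the next). Motifs were searched within 50 bp of summits. The displacement, the intervals and the motif search were tested on simulated data. The displacement was tested only at least 100 kb from any change in it, so places near such a step, as at Uncx, were not covered. Python 3.11.15, numpy 2.4.6, scipy 1.17.1 and pysam 0.24.0 were used.

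The members, the list of 22 other somite genes and the peak rules were chosen with earlier results of these data known. Peaks named by rule were those with the smallest p of each list in a window, those within 5 kb of a member start, and overlapping pairs of 2 lists. Further peaks outside this rule were also described, at Uncx, Pax9, Foxc1 and Foxc2. Alternatives changed the search window, the peak thresholds, the counting windows, the scaling, the tag placement and the displacement. The sequence of the Scx site is not reported here.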

Additional observations from a re-analysis of the deposited data

How the results depend on the processing

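Of 81 alternatives, 53 left the value within 1.5 times of the count or within the interval of the ratio, and 28 moved it. A direction was reversed in 0, but only a ratio whose interval excluded 1 could be called reversed, and a count could not. Ratios at peaks fell as the counting window widened. Within 500 bp they were 2.20 for Bapx1 VC, 3.52 for NIH3T3 and 3.26 for Sox9, and within 100 bp they were 9.24 for NIH3T3 and 10.8 for Sox9. For Bapx1 VC and Sox9, members with a peak were fewest under strict thresholds. At p of at most 1e-10 they were 1 for Bapx1 VC (Uncx), 6 for NIH3T3 and 3 for Sox9 (Foxc1, Foxc2, Uncx). At a false discovery rate of at most 50% they were 0 for Bapx1 VC, 3 for Sox9 and still 10 for NIH3T3. With 50 kb beside the gene body, 6 members had a NIH3T3 peak. Embryo Bapx1 was at a member start once, at Meox2, when 1.5-fold sufficed (1 start), and with tags within 1000 bp the NIH3T3 and Sox9 starts fell to 0 each. With the Sox9 coordinates not moved, 4 Sox9 peaks lay in the windows in place of 13, and 0 of them had the motif. Embryo Bapx1 at NIH3T3 summits was 1.11 (0.949 to 1.30) within 500 bp, with the interval reaching below 1. With the displacement from windows of 40 kb, 1 Bapx1 VC peak overlapped a Sox9 peak in place of 2. Of the alternatives, 12 were chosen after seeing the data, as were the overlap of Bapx1 VC with Sox9 peaks and the tags of each of these factors at the other's summits. No paired analysis was possible because each condition had 1 library. Depth set wide intervals at single sites, and a peak or motif not listed was not shown to be absent.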
